A study of Mus musculus with 12 samples.

Results

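The strongest constitutive distal sites were 1000 of the 69083 open-chromatin regions found by the assay for transposase-accessible chromatin with sequencing (ATAC-seq) in hematopoietic stem cells (HSCs) sorted from mouse bone marrow. ATAC-seq marks DNA that a transposase can reach, and the deposited lists gave, for each library, the summit of every peak with a score, taken here as the −log10 of its q-value. The 12 libraries formed 4 groups of 3: Young WT and Young Mlkl-/- from mice of 3 months, and Aged WT and Aged Mlkl-/- from mice of 18 months, all on the C57BL/6 background. MLKL is the pseudokinase that breaches membranes in necroptosis, and Mlkl-/- mice lack it in every tissue, not only in HSCs. Cells of several animals were pooled for a library, more animals at 3 than at 18 months, so a library stands for a pool and not for a single mouse.

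The sites were selected on these measured scores. Summits with a score of 3 or more on chromosomes 1 to 19 were given windows of 250 bp on each side, and windows were merged over the 12 libraries. Of the 69083 merged regions, 25530 lay more than 10 kb from every annotated transcript start (distal), and 4340 of these had a summit in all 12 libraries (constitutive). Each library ranked the 4340 by the region's highest score, and the 1000 with the best mean rank over the 12 libraries were taken, numbered here by place (site 1 is the strongest). Level and rank were thus set by the rule and are given as a description. Sequence, position, and neighboring genes were not used by it. The contrasts between ages and genotypes did not enter it as such, but they compare the same scores that the mean rank joins. A site weak in young libraries can thus be a member through the aged ones, and the reverse.

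Distal open regions in blood stem cells are mostly enhancers, where sequence-specific factors such as RUNX, ETS, and GATA proteins bind together, or sites of CTCF, the zinc-finger protein that stops cohesin and so anchors chromatin loops. CTCF is bound at many of the same positions in all cell types. Nuclear copies of mitochondrial DNA and other repeats can also collect ATAC-seq signal, as they may receive reads from elsewhere, since mitochondrial DNA carries no nucleosomes and is cut readily.

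The libraries held between 36805 and 63125 deposited summits, and between 34810 and 59884 at a score of 3 or more on the autosomes. The median score of the 1000 sites ranged from 21.8 (Young Mlkl-/- replicate 3, which also had the shortest list) to 45.8 (Aged Mlkl-/- replicate 3, which had the longest). Between 70.4% and 89.8% of the sites fell in the strongest 10% of all merged regions in each library. As a check of cell identity, 8 of 14 HSC marker genes had a summit within 1 kb of a transcript start in all 12 libraries and Slamf1 (CD150, used in the sort) had none in any, whereas none of the 8 myeloid markers was open in any library. Among the 8 lymphoid markers, Pax5 and Ebf1 were open in all 12 libraries. No pair of lists shared more than 1.28% of summits at the same base. Every library had between 1 and 3 summits in or near Mlkl, in both genotypes, which does not check the knockout. Nothing in the sources used here says that libraries of a group came from separate cohorts, so p-values measure the spread between these libraries.

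The strongest sites of all were mostly repeats. Site 1 (chr12:3109726-3110236, intergenic, 199.7 kb from the nearest coding start, Rab10) scored from 244.6 to 261.7 over the 12 libraries, with a median of 254.2. Site 2 (chr12:97061298-97061838, intergenic) followed with a median of 253.3 (242.8 to 286.8), and the median then fell to 107.3 at site 8, 104.9 at site 10, and 69.3 at site 14 (chr10:54117692-54118216, 41.1 kb from Man1a, a Golgi mannosidase gene). In all 12 libraries the sites at the top kept their order to within a few ranks, since the worst rank of any of the first 10 in any library was 11. Copy number was counted for each 31-base word (31-mer) in the 201-bp window centred on the median summit. Site 1 had a median of 43 copies per 31-mer. Sites 2, 4, 5, 6, and 7 shared 97.7%, 66.7%, 57.9%, 62.0%, and 67.3% of their 31-mers with the mitochondrial genome, and each of the 13 strongest sites had some 31-mer that was repeated or mitochondrial. Site 14 was the strongest with none of either.

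**Figure D1:**
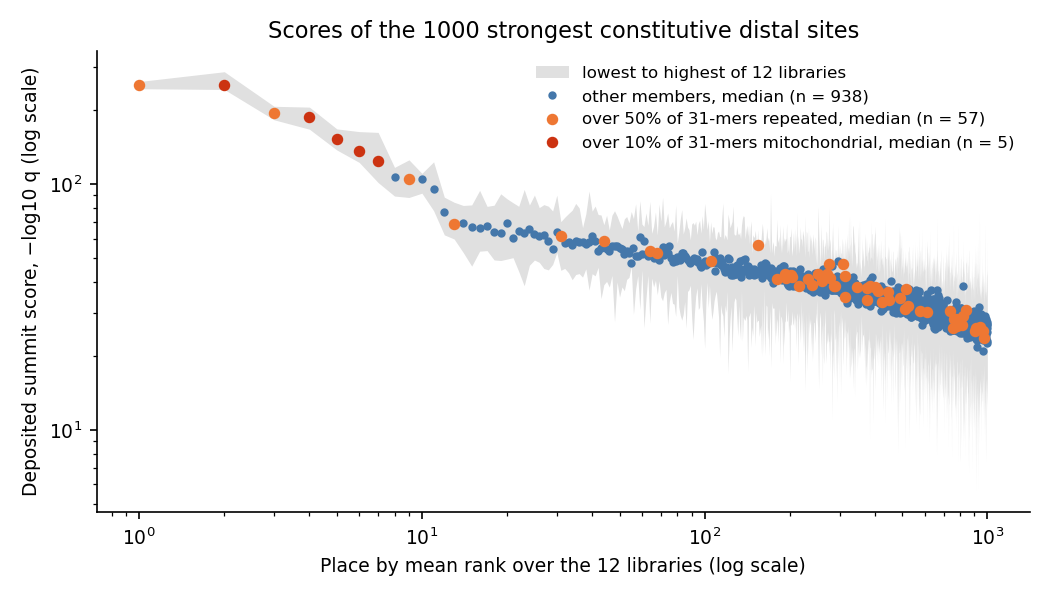
Deposited summit score (−log10 q, log axis) of each of the 1000 sites against its place by mean rank (log axis); points are medians over the 12 libraries, colored by repeat class, and the gray band runs from the lowest to the highest library. The 5 sites with mitochondrial sequence all lie within the first 7 places, and the medians fall from 254.2 at site 1 to 69.3 at site 14.

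The windows of sites 2, 4, and 6 show this match, and are printed for that reason. They are read from the plus strand of the mouse genome GRCm38 (mm10), and capitals mark the bases covered by 31-mers that also occur in the mitochondrial genome.
site 2, chr12:97061473-97061673: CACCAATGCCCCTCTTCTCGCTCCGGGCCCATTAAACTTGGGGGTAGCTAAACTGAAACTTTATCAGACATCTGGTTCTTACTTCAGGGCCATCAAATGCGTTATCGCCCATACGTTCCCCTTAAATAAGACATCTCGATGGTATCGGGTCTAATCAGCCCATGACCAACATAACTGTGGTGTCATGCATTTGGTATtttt
site 4, chr5:60042889-60043089: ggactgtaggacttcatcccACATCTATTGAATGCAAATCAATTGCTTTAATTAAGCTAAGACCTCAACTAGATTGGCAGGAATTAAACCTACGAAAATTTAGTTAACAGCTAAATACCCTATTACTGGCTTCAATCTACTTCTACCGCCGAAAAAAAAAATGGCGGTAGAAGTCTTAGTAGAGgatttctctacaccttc
site 6, chr10:96077582-96077782: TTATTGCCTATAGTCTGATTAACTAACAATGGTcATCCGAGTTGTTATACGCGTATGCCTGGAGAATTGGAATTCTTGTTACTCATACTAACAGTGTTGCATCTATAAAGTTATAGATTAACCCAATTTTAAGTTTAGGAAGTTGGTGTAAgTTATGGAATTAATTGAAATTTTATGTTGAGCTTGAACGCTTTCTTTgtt

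Further down, repeats were a minority. More than 50% of the 31-mers were repeated in 60 of the 1000 sites (6%), as against 99 of the other 3340 constitutive distal regions (2.96%). By place, the counts were 7 of the first 13 sites, 4 of the next 87, 31 of sites 101 to 500, and 18 of sites 501 to 1000. More than 10% mitochondrial 31-mers occurred in 5 sites and in 2 of the other 3340 regions. No repeated and no mitochondrial 31-mer was found in 864 sites. How the aligner treated reads with several matches is not given in the sources used here, and its part in these scores was not tested. The values below without repeats leave out the 62 sites above either limit and keep 938.

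A single tandem array supplied 15 of the 60 repeated sites. Between Ezh2, which encodes a histone H3 lysine 27 methyltransferase, and Pdia4, which encodes an endoplasmic reticulum disulfide isomerase, 15 sites lay within 113.3 kb (chr6:47654890-47768183). They formed a block of 8 and a block of 7, separated by 54.6 kb, and within the blocks neighboring summits were 4.27 to 5.58 kb apart (median over all neighbors 4.34 kb). Every constitutive distal region in this interval was among the 1000 strongest. The 201-bp windows of any pair were at least 99.0% identical at the best ungapped shift (median 100% over 105 pairs). RefSeq places Rn4.5s, which encodes a small noncoding RNA of rodents, at chr6:47654921-47655094 on the minus strand, a gene for which the annotation used in the rule gives no start there. The first 60 bases of Rn4.5s, with at most 10% mismatches, recurred 16 times within 20 kb of the array, all in the same orientation. In 14 of the 15 sites the median summit lay 100 to 154 bp upstream of such a copy, and in the other one (site 444) no copy was that near. These 14 sites are distal to the annotated starts used by the rule but next to the start of such a copy.

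The following windows of 87 bp come from the first and last sites of the first block and the first of the second, and show how alike the copies are. They are printed on the plus strand, with the RUNX match (TGTGGTT, here as its reverse complement) in capitals.
site 526, chr6:47655199-47655285: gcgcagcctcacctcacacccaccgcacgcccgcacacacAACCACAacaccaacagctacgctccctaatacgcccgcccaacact
site 314, chr6:47685481-47685567: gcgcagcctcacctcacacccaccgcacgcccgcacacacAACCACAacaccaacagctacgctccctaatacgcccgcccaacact
site 233, chr6:47740076-47740162: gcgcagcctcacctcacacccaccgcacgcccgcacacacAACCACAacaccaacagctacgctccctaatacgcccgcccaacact
A RUNX match of this kind was present in all 15 sites of the array, so these 15 count as 1 sequence rather than as independent matches among the 207 sites with RUNX. Scores in the array ranged from 16.4 to 66.3 over all sites and libraries, with medians per site from 25.3 (site 964) to 42.5 (site 202). Reads from near-identical copies cannot be assigned with certainty, so the level of a single copy is uncertain.

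**Figure D2:**
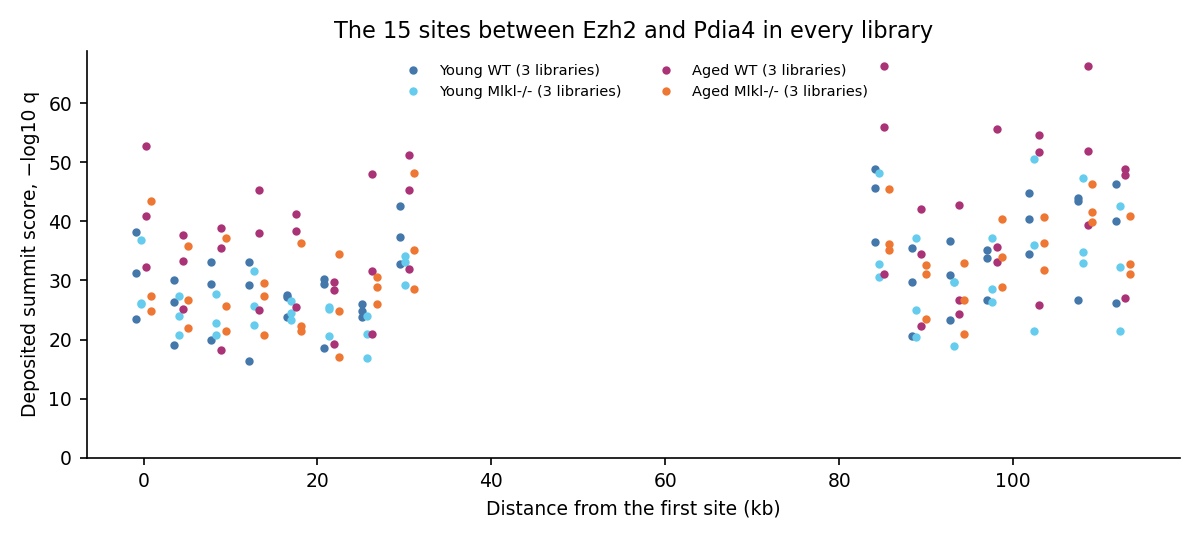
Deposited summit score (−log10 q) of the 15 sites between Ezh2 and Pdia4 in each of the 12 libraries, against distance from the first site in kb; each point is 1 library, colored by group and shifted sideways by group. The sites form a pair of regularly spaced blocks, and the scores of the 6 young and the 6 aged libraries overlap at every site, with values from 16.4 to 66.3.

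CTCF matches were rare among the strongest sites. A match to the CTCF motif (14 letters, at most 1 mismatch, either strand, within 100 bp of the median summit) was present in 22 of 1000 sites, or 2.2% (95% exact binomial interval 1.38% to 3.31%, counting error only). The share was 7.3% at places 1001 to 2000, 8.4% at 2001 to 3000, 14% at 3001 to 4000, and 14.4% at 4001 to 4340. It was 15.8% in the 21190 distal regions found in fewer than 12 libraries, 4.17% in the 11555 constitutive regions within 1 kb of a start, and 0.6% in the windows of the 1000 sites moved by 5 kb. With the match defined otherwise, the strongest sites kept the lower share. It was 0.5% with no mismatch as against 3.71% in the other 3340 constitutive distal regions, 9.7% with up to 2 mismatches as against 19.9%, and 4.8% anywhere in the merged region as against 15.1%. When the same rule was applied to the 3 libraries of 1 group, the share was 2.3% with the Young WT and 2.1% with the Aged WT libraries, and 2.7% and 2.4% with the young and aged Mlkl-/- libraries. These shares are descriptions and were not tested against each other.

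Where a site did hold a CTCF match, the summit was often not on it. The median distance from motif center to summit was 56.5 bp in the 22 sites, 28.5 bp in 346 of the other 3340 regions, and 20.5 bp in 3344 distal regions found in fewer libraries. Within 25 bp lay 27.3%, 46.2%, and 56.8% of these matches. No CTCF match with 0 mismatches ranked better than site 230. The 5 sites with such a match are printed over 60 bp on the plus strand, with the motif in capitals, to show the sequence that was searched for.
site 230, chr2:10142857-10142916: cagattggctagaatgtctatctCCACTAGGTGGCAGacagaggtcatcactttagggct
site 340, chr7:91457324-91457383: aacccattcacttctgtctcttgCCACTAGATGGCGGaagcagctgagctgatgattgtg
site 598, chr13:53109627-53109686: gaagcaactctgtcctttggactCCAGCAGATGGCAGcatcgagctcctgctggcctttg
site 672, chr11:109331500-109331559: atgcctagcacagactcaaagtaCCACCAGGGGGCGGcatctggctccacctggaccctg
site 958, chr3:128337157-128337216: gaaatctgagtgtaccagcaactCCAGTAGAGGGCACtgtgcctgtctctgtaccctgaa
These sites lay nearest to the coding genes Itih5, Dlg2, Nfil3, Gna13, and Fam241a, in that order. Their motif centers were 18.5, 86.5, 57.5, 17.5, and 35.5 bp from the summit.

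RUNX and AP-1 matches showed the opposite order. Exact matches on either strand within 100 bp of the summit were counted for the same tiers. RUNX (TGTGGTT), the motif of the RUNX1 family that HSCs depend on, was present in 20.7% of the 1000 sites, 15.4% of the other 3340 constitutive distal regions, and 4.4% of the moved windows. Its share was lower in each later tier, at 17.3%, 15.8%, 14.9%, and 9.71%. The share in the sites counts each of the 15 array sites, which all lie in the first tier. AP-1 (TGANTCA), bound by FOS and JUN proteins, went from 17.9% through 15.5%, 15%, and 13.2% to 8.53%, with 5.8% in moved windows. ETS (AGGAAGT), the motif of FLI1, ERG, and PU.1, was at 27.9% and 28.9% in the first pair of tiers and then at 26%, 20.3%, and 19.1%, with 4.6% in moved windows. The motif of GATA factors, including GATA2 of HSCs, is AGATAA, and it was present in 15.6% of the sites, beside 12.1% of moved windows, and the E-box (CAGNTG) in 47.1%, beside 48.1% of the other 3340. The remaining families ranged from 0 sites with YY1 to 205 with NF-Y (CCAAT, 20.5%, 24.3% in moved windows). SP/KLF (GGGCGG) was found in 11.6% of sites but in 56.7% of constitutive regions within 1 kb of a start.

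**Figure D3:**
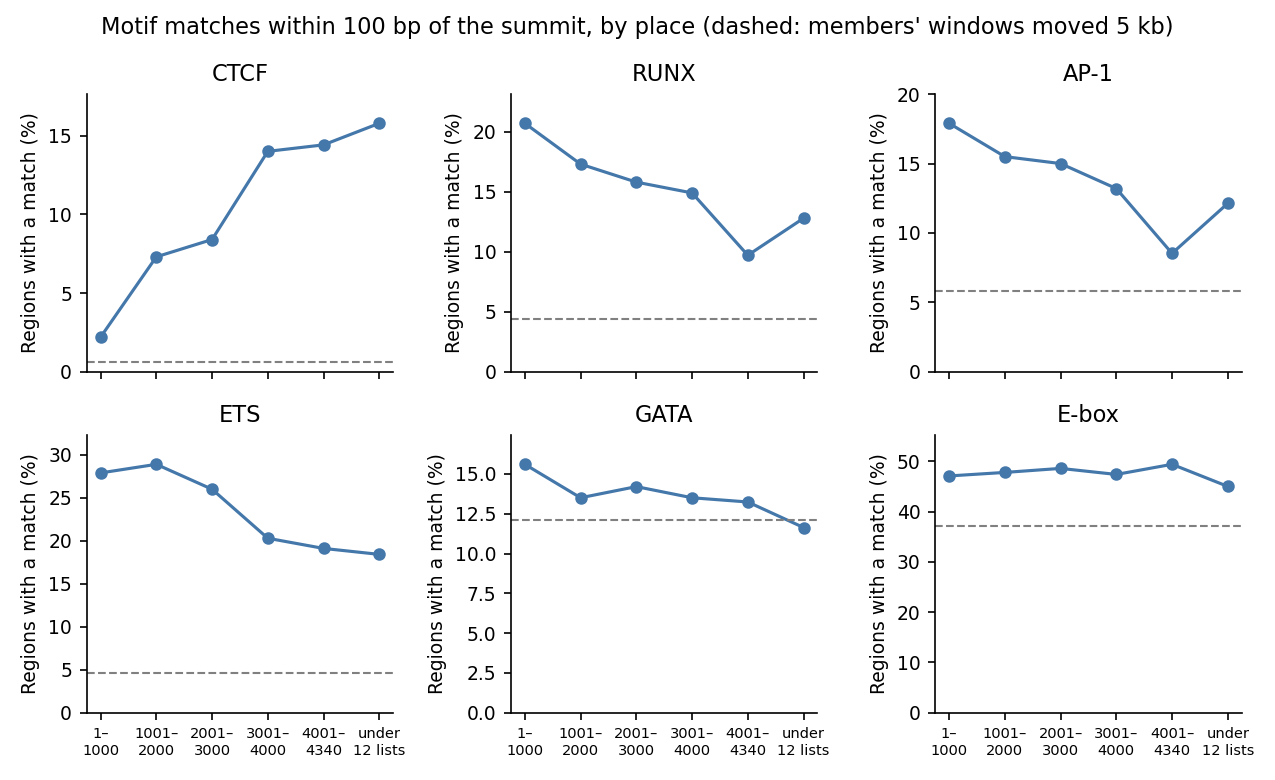
Share of regions (%) with a match to 6 motifs within 100 bp of the median summit, by place among the 4340 constitutive distal regions and in distal regions found in fewer than 12 libraries; the dashed line is the share in the windows of the 1000 sites moved by 5 kb. CTCF rises from 2.2% to 15.8% from left to right, whereas RUNX is highest, at 20.7%, in the 1000 strongest sites.

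Matches of different families occurred together in part of the sites. Such counts follow in part from the share of each single family. Expected counts were not computed, so the values below do not show that families go together more often than apart. At least 2 of the ETS, RUNX, GATA, and E-box families were present in 30.2% of the 1000 sites, 28% of the next 1000, 23.1% at places 3001 to 4000, and 19.3% of distal regions in fewer libraries. RUNX and ETS matches occurred together in 52 sites and overlapped in 1, GATA and RUNX together in 24 and overlapped in 2, and AP-1 and E-box together in 89 and overlapped in 17. E-box and CTCF matches overlapped in 6 of the 16 sites with both. Words of 8 letters were also counted without a motif list. In the 938 sites without repeats, words were ordered by their excess over the other regions on the odd chromosomes and then read on the even ones. The first was AAACCACA (a RUNX core), in 12.7% of 471 sites and 7.4% of 1622 other regions on odd chromosomes and in 11.6% of 467 sites and 8.16% of 1617 regions on even ones. GTGACTCA (AP-1) was at 8.49% and 4.13%, and on even chromosomes at 5.35% and 4.08%. AGGAAACC, which holds the ETS core GGAA next to a partial RUNX core, was at 7.43% and 3.76%, and on even chromosomes at 8.78% and 4.89%. All 12 leading words were again more frequent in the sites on the even chromosomes, whereas of the 12 words with the largest deficit 6 were again less frequent.

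The strongest sites with no repeated 31-mer illustrate these matches. Site 14 is the best-placed site with AP-1, site 15 the best-placed unique site with both RUNX and GATA, and site 16 the best-placed unique one with ETS. Their 201-bp windows are printed on the plus strand with these matches in capitals.
site 14, chr10:54117855-54118055: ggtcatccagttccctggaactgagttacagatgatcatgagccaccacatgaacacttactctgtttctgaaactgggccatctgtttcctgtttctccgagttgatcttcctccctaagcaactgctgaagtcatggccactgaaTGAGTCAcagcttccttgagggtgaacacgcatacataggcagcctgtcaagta
site 15, chr6:11594077-11594277: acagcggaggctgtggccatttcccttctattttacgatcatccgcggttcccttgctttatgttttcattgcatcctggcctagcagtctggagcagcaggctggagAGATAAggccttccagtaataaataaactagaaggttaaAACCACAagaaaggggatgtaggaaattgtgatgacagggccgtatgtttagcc
site 16, chr14:22183360-22183560: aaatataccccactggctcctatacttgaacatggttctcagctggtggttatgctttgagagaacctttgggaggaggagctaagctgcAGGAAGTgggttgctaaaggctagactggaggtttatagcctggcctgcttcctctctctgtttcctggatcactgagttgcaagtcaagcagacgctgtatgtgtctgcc
Site 15 (chr6:11593395-11594439) was intergenic and 313.0 kb from the start of Ndufa4, a gene of the mitochondrial respiratory chain, and site 16 (chr14:22183190-22183748) was in an intron of Lrmda. Their scores ranged from 46.4 to 82.3 and from 53.4 to 94.3 over the 12 libraries.

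The sites were narrower than the next tiers, and their summits lay close together across libraries. Their median width was 569 bp, as against 606, 635, and 672 bp in the next 3 tiers of 1000. It was 565 bp in distal regions found in fewer than 12 libraries. Width grows with the scatter of the merged summits, so it is not separate from summit position. Between 6.7% and 15.5% of the sites held more than 1 summit in a library. A site's highest summit lay a median of 11 bp from the median position over the other 11 libraries, and 80.4% of these distances were at most 25 bp. At places 1001 to 2000 and 3001 to 4000 the medians were 15 and 23 bp. Tiers were cut by score, and how far the scatter of summits follows from score was not tested. The median offset per library did not differ between ages beyond the spread between libraries (aged 11.6 ± 1.74 bp, young 11.8 ± 2.56 bp, SD, n = 6 each; exact stratified permutation test, two-sided, p = 0.9) or between genotypes (Mlkl-/- 12.2 ± 2.60 bp, WT 11.2 ± 1.47 bp; exact permutation p = 0.455). Among the 1000 sites, 493 were intergenic, 491 intronic, and 16 exonic by the position of the median summit, shares that were close to those of the next 1000 (498, 481, and 21). The median GC content of the window was 50.7%, as against 65.2% in constitutive regions near starts, and 8.7% of sites were CpG-rich (GC over 50% and observed to expected CpG over 0.6), as against 74% near starts.

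Most sites stood alone. The median distance to the nearest other site was 629 kb, 54 sites (5.4%) lay within 12.5 kb of another, and 211 (21.1%) within 100 kb. In the next 1000 regions the counts were 59 and 217. Joined at gaps of up to 12.5 kb, the sites gave 21 clusters of at least 2, of which 3 had more than a pair. Those were the 2 blocks of the array between Ezh2 and Pdia4 and 3 sites over 10.1 kb (chr13:13528962-13539092), 20.3 to 29.8 kb from Nid1, which encodes the basement membrane protein nidogen. Beyond the array, Smad7, an inhibitor of TGF-β signaling, was the nearest coding gene of 5 sites, and Chd7, a chromatin remodeler, and Fam49a, a regulator of the actin cytoskeleton, of 4 each. The choice of annotation matters here: 196 sites (19.6%) were within 10 kb of a transcript start in RefSeq, most of them starts of predicted transcripts, since 19 were within 10 kb of a curated one. The share for the other 3340 regions was 20.1%.

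Genes of HSC identity were the nearest coding genes of a part of the sites. The 1000 sites had 861 nearest protein-coding genes, 3.93% of 21924, of which 111 were nearest to more than 1 site. Of 30 HSC transcription factor genes, 8 (26.7%) were nearest to a site, as against 7, 10, and 4 in the next 3 tiers of 1000. Of 30 HSC surface and signaling genes, 3 were nearest to a site, beside 4, 3, and 4 in those tiers. The same held for 1 of 15 lymphoid genes (Bcl11a) and 1 of 14 genes of CTCF, cohesin, and loop factors (Ctcfl, the testis paralog of CTCF, near site 870). None of the 15 myeloid, 15 erythroid and megakaryocyte, 15 other-tissue, and 10 necroptosis genes was nearest to a site. Long genes and genes next to deserts attract more distal regions, so the shares of short lists are given without a test.

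Runx1, which encodes a factor required for HSCs to form, had the strongest of these. Site 41 (chr16:92801516-92802054) lay in a Runx1 intron, 23.7 kb from the nearest Runx1 start, and scored from 42.4 to 81.4 (median 58.8). Its window is printed on the plus strand, with the only matches to RUNX, ETS, GATA, AP-1, or E-box letters, both E-boxes, in capitals.
site 41, chr16:92801680-92801880: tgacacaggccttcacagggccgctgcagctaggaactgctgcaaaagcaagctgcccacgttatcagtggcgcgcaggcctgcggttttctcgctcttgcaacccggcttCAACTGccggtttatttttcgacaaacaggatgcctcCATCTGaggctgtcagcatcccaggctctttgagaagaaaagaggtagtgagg
Site 65, 32.9 kb from the start of Gfi1, a repressor that restrains HSC division, lay in an intron of Evi5 and scored from 41.5 to 63.1 (median 52.4). Site 88 and site 425 were 84.3 and 100.5 kb from Bcl11a, a zinc-finger factor of lymphoid cells and HSCs, with medians of 48.8 and 35.7. Site 101, with a RUNX match, was in an intron of Ptprc (CD45) and had a median of 46.9, and site 378, 554 kb from the same start, had 36.7. Site 276 was 13.3 kb from Fli1, an ETS factor of the stem cell network, with a median of 39.4. The remaining sites with an HSC transcription factor gene as the nearest coding gene were site 464 (Hlf, median 30.1), site 509 (Etv6, 31.1), sites 516 and 552 (Cbfa2t3, 32.4 and 33.2), sites 586 and 593 (Meis1, 29.1 and 30.5), and sites 447 and 622 (Klf4, 33.5 and 30.6). The Klf4 sites were intergenic, 581 and 119 kb from its start, and the others were 12.4 to 86.6 kb from theirs. Both Meis1 sites lay in introns of the gene and each held an ETS and a GATA match. Sites 727 and 840 were intronic in Itga6 and Itga4, which encode integrin subunits, with medians of 28.0 and 28.9. None of the sites named here passed the test for age (adjusted p below 0.01, limma). The smallest adjusted p among them was 0.026 (site 516, a change of -0.44 ± 0.12, SE, in normal score).

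Whether strength changed with age or with loss of Mlkl was tested for all regions together. Lists were cut to their strongest 34810 summits, ranks within a library were turned into normal scores, and limma was fitted over the 36921 regions present in at least 3 lists. A normal score is the ranked position of a region among all merged regions, read on a standard normal scale. A change of 1 is 1 unit of that scale. Regions without a summit in a cut list shared a tied rank, so the scores as a whole do not have that scale's spread. All 1000 sites were tested. At 18 as against 3 months, over both genotypes, 49 sites (4.9%) passed an adjusted p of 0.01, of which 34 were higher and 15 lower. The share over all regions was 2.78% (1.77% higher and 1.02% lower), and in the other constitutive distal regions 2.85%. In the tier of places 1001 to 2000, 59 of 1000 passed. Of the distal regions found in fewer than 12 libraries, 381 of 7155 tested passed (5.32%). Of constitutive regions within 1 kb of a start, 63 of 11554 passed (0.545%), which lowers the share over all regions. The median standard error of the change was 0.142 at the sites and 0.224 over all regions, so a change of a given size passes more readily at the sites. The count depended on single libraries: it was 21 to 32 without Young WT replicate 1, 2, or 3, Young Mlkl-/- replicate 1, Aged WT replicate 1 or 3, or Aged Mlkl-/- replicate 1 or 2, while the share over all regions was then 1.87% to 2.12%. It was 48 of the 938 sites without repeats.

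List length and summits at Y-linked genes moved with age as well. Aged lists held 45789 to 59884 summits at a score of 3 or more (median 55205) and young lists 34810 to 54954 (median 44567). Summits at the starts of 4 Y-linked genes (Ddx3y, Uty, Eif2s3y, and Kdm5d) were present in 3 of 6 young and 0 of 6 aged libraries. With list length as a covariate, 8 sites passed (4 higher and 4 lower, 0.8% beside 0.219% of all regions), and with the presence of these Y-linked summits as a covariate, 12 passed, all higher (1.2% beside 0.888%). Both fits were chosen after the data were seen. Part of the calls can therefore not be told apart from these properties of the libraries.

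The largest gains with age were at 3 intronic sites. The calls at the first pair, sites 938 and 978, held under all 19 alternatives run. Site 938 (chr3:76251273-76251839), in an intron of Fstl5 175.7 kb from its start, scored from 10.9 to 19.1 in the 6 young libraries (median 14.5) and from 37.3 to 76.3 in the 6 aged ones (median 52.4). All 6 aged values were above all 6 young values. The change in normal score was 1.39 ± 0.12 (SE; limma adjusted p = 3.48e-06), and it was 1.08 ± 0.16 in WT and 1.71 ± 0.16 in Mlkl-/-. Site 978 (chr10:69611732-69612372), in an intron of Ank3, which encodes the membrane scaffold ankyrin-G, scored from 12.1 to 18.9 in young (median 13.2) and from 39.4 to 68.4 in aged libraries (median 49.9). The groups did not overlap, and the change was 1.30 ± 0.13 (limma adjusted p = 2.02e-05). Site 663 (chr5:43184730-43185291), in an intron of Gm7854 and 47.9 kb from Cpeb2, a regulator of translation, scored from 12.6 to 34.3 in young (median 15.8) and from 39.8 to 72.8 in aged libraries (median 51.2). It too showed no overlap, with a change of 1.12 ± 0.14 (limma adjusted p = 0.000143), which became 1.02 (limma adjusted p = 0.0103) with list length as a covariate. The young medians of these 3 sites were below the medians over all libraries at sites 998 to 1000 (22.6 to 26.0). Their membership therefore rests on the aged scores, which also enter the test.

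The sequences at the first pair of these sites are printed on the plus strand. Capitals mark MEIS (TGACAG) and CEBP (TTGCNNAA) matches in site 938 and ETS and E-box matches in site 978, the only families of the 16 searched that matched there.
site 938, chr3:76251459-76251659: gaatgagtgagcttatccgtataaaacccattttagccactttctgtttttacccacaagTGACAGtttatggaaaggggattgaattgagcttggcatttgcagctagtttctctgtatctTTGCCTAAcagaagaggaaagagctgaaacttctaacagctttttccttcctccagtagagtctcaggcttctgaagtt
site 978, chr10:69611949-69612149: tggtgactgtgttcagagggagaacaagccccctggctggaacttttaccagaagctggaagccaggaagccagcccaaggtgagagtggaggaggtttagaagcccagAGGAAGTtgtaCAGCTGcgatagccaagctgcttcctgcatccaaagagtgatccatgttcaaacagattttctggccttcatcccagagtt

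The largest losses were smaller. Site 611 (chr19:16372977-16373556), in an intron of Gnaq and 62.2 kb from Gna14, which both encode G-protein alpha subunits, scored from 18.6 to 56.2 in young (median 44.4) and from 17.9 to 39.1 in aged libraries (median 24.2). The groups overlapped through Young Mlkl-/- replicate 3 at 18.6, and the change was -0.93 ± 0.17 (SE; limma adjusted p = 0.00258). Site 726 (chr2:35831374-35831945), in an intron of Ttll11, a tubulin-modifying enzyme, fell from a median of 39.3 (22.6 to 46.5) to 23.9 (14.1 to 41.8), a change of -0.76 ± 0.15 (limma adjusted p = 0.00373) with overlap. Site 676 (chr2:13413437-13414001), in an intron of Cubn, the receptor cubilin, fell from a median of 38.1 (33.9 to 43.5) to 25.1 (11.9 to 35.8), a change of -0.75 ± 0.12 (limma adjusted p = 0.000918). On the rank scale, the young and aged values of this site did not overlap. With the Y-linked summits as a covariate, none of the 3 losses passed (limma adjusted p = 0.0695, 0.0783, and 0.0106 in the order given), and with list length as a covariate site 676 did not (limma adjusted p = 0.0238). The call at site 611 was also lost without Young Mlkl-/- replicate 1, Aged WT replicate 3, or Aged Mlkl-/- replicate 2 (limma adjusted p = 0.0118, 0.0123, and 0.0107), and that at site 726 without any 1 of Young WT replicates 1 and 2, Young Mlkl-/- replicates 1 and 2, Aged WT replicates 1 and 3, and Aged Mlkl-/- replicates 1 and 2 (limma adjusted p = 0.0105 to 0.0163). With percentile ranks neither passed (limma adjusted p = 0.0112 at site 611 and 0.0171 at site 726), nor did either in the 9 libraries with an unexplained tag in the file name (limma adjusted p = 0.0661 and 0.0682).

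**Figure D4:**
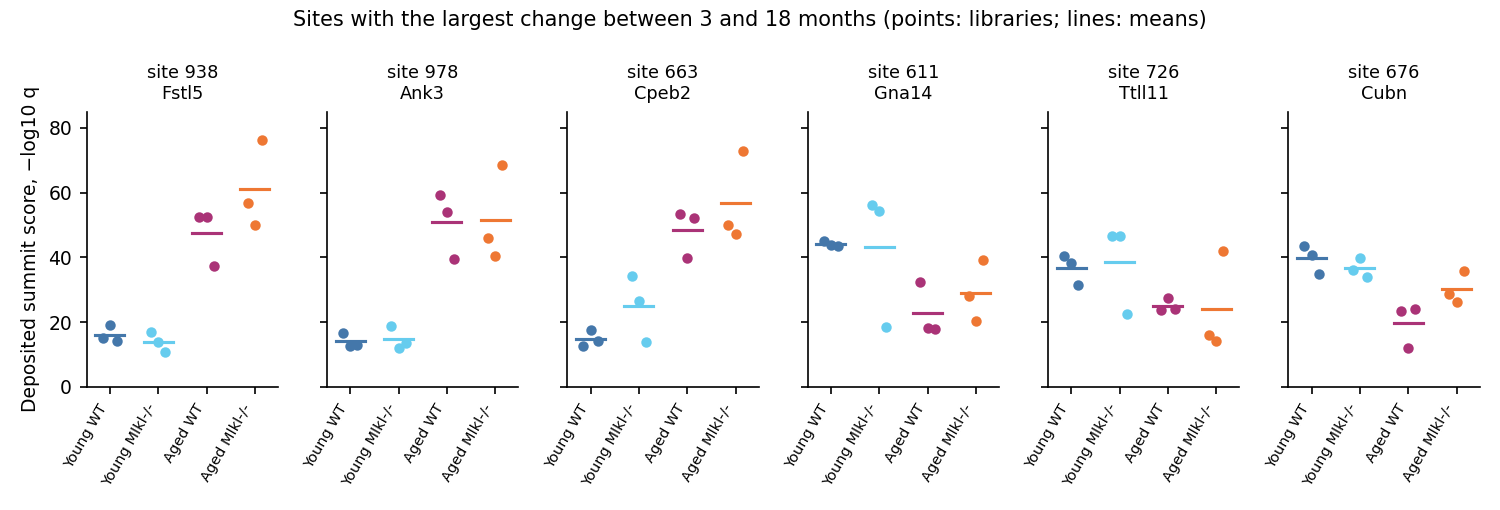
Deposited summit score (−log10 q) in each of the 12 libraries for the 6 sites with the largest changes between 3 and 18 months, 3 higher and 3 lower, titled by site and nearest coding gene; points are libraries and lines are group means (n = 3). At site 938 the young libraries lie between 10.9 and 19.1 and the aged ones between 37.3 and 76.3.

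Changes among the 49 sites ran from 0.51 to 1.39 for gains and from -0.93 to -0.52 for losses. More than 50 kb from a transcript start lay 10 of the 34 gains (29.4%) and 2 of the 15 losses (13.3%), beside 15.8% of all 1000 sites, a difference that was not tested. The sites were of moderate place, with 11 gains and 4 losses among the first 500. Place averages young and aged ranks, so a site weak at either age is kept from the best places by the rule. No CTCF match occurred in any of the called sites, beside 2.2% of all 1000. RUNX matches occurred in 8 gains and 3 losses (23.5% and 20%, beside 20.7% of all sites). ETS was found in 8 and 5 (23.5% and 33.3%, beside 27.9%) and AP-1 in 7 and 2 (20.6% and 13.3%, beside 17.9%). GATA was found in 6 and 3 (17.6% and 20%, beside 15.6%). These shares were not tested. Sites 587 and 858, both higher with age, had the same nearest coding gene (Fam181b). None of the 15 array sites passed (changes from -0.17 to 0.14, lowest limma adjusted p = 0.493).

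**Figure D5:**
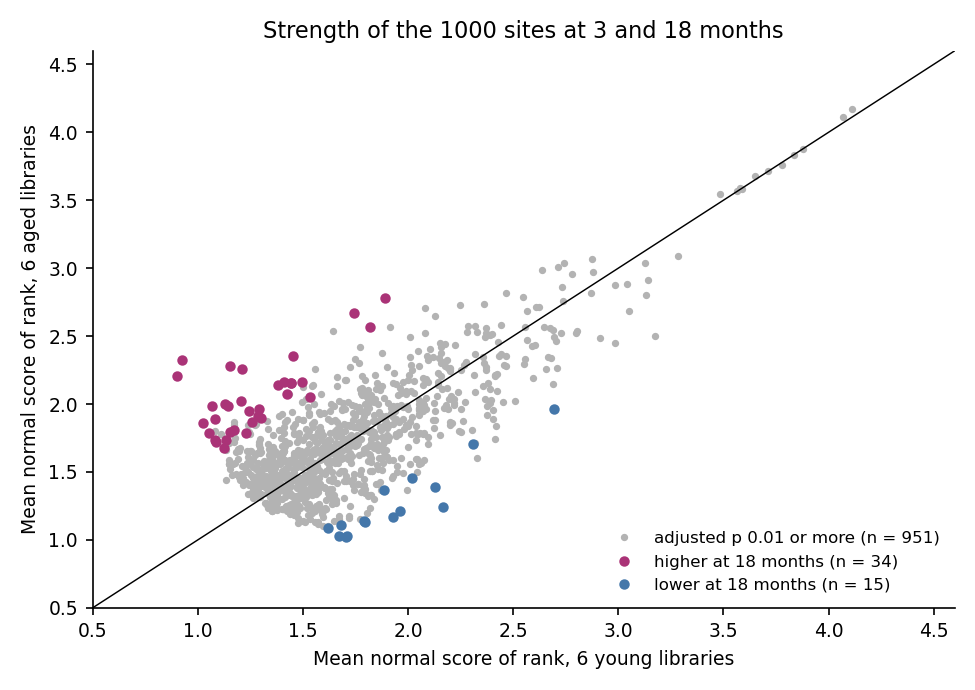
Mean normal score of rank over the 6 aged libraries against that over the 6 young libraries for the 1000 sites; each point is a site, colored where the age difference passed an adjusted p of 0.01, and the line marks equality. The 34 gains and 15 losses lie mostly at moderate strength, which follows in part from the rule, since place averages both ages. The empty lower left corner is set by the rule.

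Within one genotype fewer sites passed. In WT, 5 sites (4 higher, 1 lower) passed for age, beside 0.206% of all regions, and in Mlkl-/- 2 sites (sites 938 and 978, both higher), beside 0.154%. The count in WT was 1 with the replicate number as a block and 0 with list length as a covariate. It was 0 to 3 without any 1 of Young WT replicates 1 to 3, Aged WT replicates 1 to 3, Young Mlkl-/- replicate 1, or Aged Mlkl-/- replicates 1 to 3, and in Mlkl-/- it was 1 without Young Mlkl-/- replicate 2 or Aged Mlkl-/- replicate 1, 2, or 3. The gains in WT were at sites 978, 663, 938, and 931, and the loss was site 676 (limma adjusted p = 0.00826). No site passed the test between genotypes: 0 of 1000 passed limma over both ages, at 3 months, or at 18 months, where the share over all 36921 regions was 0% each time, and the lowest adjusted p among the sites were 0.766, 0.496, and 0.661. At an unadjusted p under 0.05, 73, 85, and 41 sites were below it in these contrasts, 7.3%, 8.5%, and 4.1% of the sites beside 6.19%, 5.33%, and 5.08% of all regions. The interaction of age and genotype passed at 0 sites and in 0% of regions (lowest limma adjusted p among the sites 0.965, 57 sites at an unadjusted p under 0.05), so that no difference in the age effect between genotypes was detectable. For 95% of the sites, the estimated genotype change over both ages was at most 0.33 in normal score, as against 0.63 for age.

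The rank of motif classes among the sites was compared per library, with ranks taken over all 4340 constitutive distal regions. The median rank (rank 1 is the strongest) of the 22 sites with CTCF minus that of the others was 155.0 ± 58.7 in aged and 95.5 ± 136.0 in young libraries (SD, n = 6 each; exact stratified permutation test, two-sided, p = 0.385), and 80.0 ± 136.0 in Mlkl-/- and 170.5 ± 25.9 in WT libraries (exact permutation p = 0.13). Both differences depended on single libraries and on the definition of the match: that between ages (59.5 ranks) was 15.8 to 114.1 without 1 library, lowest without Aged WT replicate 2, and -237.8 (exact permutation p = 0.21) with the match within 50 bp, and that between genotypes (-90.5 ranks) was -139.2 to -16.8 without 1 library and 14.2 (exact permutation p = 0.51) with up to 2 mismatches. The difference between CTCF and other sites was positive, that is weaker with CTCF, in 11 of 12 libraries. Over 11 motif families and both factors, 22 such tests were made and none passed after Benjamini-Hochberg adjustment. A lone test at the smallest possible exact permutation p (0.005) adjusts to 0.11. No single family could therefore have passed, and the adjusted values decide nothing about a single family. All of these tests compare the ranks whose mean chose the sites, so young and aged ranks within the sites are not free of the rule. The lowest p was that of MEIS and age. MEIS letters matched in 16.2% of the sites, 16.6% of the other 3340 constitutive distal regions, and 12.2% of the windows moved by 5 kb. The 162 sites with a MEIS match, the motif of MEIS and TGIF homeodomain factors, ranked better than the others in all 6 young libraries (-112.5 to -56.8) and worse in all 6 aged libraries (8.0 to 148.0), a difference of 136.7 ranks (exact permutation p = 0.005, the smallest that 400 labelings allow; adjusted p = 0.11). NF-Y went the other way (aged -47.8 ± 36.9, young 24.9 ± 34.7, exact permutation p = 0.01, adjusted p = 0.11).

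Applied to the 3 libraries of a single group, the rule found 83.1% of the 1000 sites with the Young WT and 83.7% with the Aged WT libraries, and 85% and 79.7% with the young and aged Mlkl-/- libraries. Around the cut, site 998 (near Plekho2) had a median score of 23.0, site 999 (Gja1) 22.6, and site 1000 (Bola3) 26.0, while the regions at places 1001 (Rybp), 1002 (1700018B08Rik), and 1003 (Adamts2) had 24.7, 23.6, and 24.9. Their mean ranks ran from 1242 to 1248, so that the limit separates regions of the same strength.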

How the data were processed

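ATAC-seq was performed on HSCs sorted as Lin-/cKit+/Sca1+/Flk2-/CD48-/CD150+ cells. Per the study's methods and the submitters' processing notes, reads were aligned with Bowtie2 2.5.3 to mm10 and peaks were called in each library with MACS2 2.2.7.1; how multiply aligned reads were handled is not given in the sources used here. The authors deposited 1 summit list per library, with a score taken here as the −log10 of the q-value; the score grows with read depth, and total reads were not used here, so scores were compared as ranks. The lowest deposited score was near 2, below what the q-value cutoff of 0.001 in the methods would leave on that scale; a minimum of 3 was applied, which equals that cutoff if the scale is right.

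Summits were merged and selected as described in the text, against GENCODE vM21 transcript starts. Sequences came from the RefSeq copy of GRCm38 (pysam 0.24.0). Ranks were tested with limma 3.58.1 (4 group means, intensity trend, Benjamini-Hochberg adjustment over all regions) in R 4.3.3, and single values with exact permutations of labels within strata (400 labelings, smallest p 0.005). Procedures were tested on simulated data with planted changes. The simulated scores held no absent summits and no unequal list lengths, so tied ranks and list length were not covered. Named sites were the 10 best, those around place 1000, the largest changes called per contrast, the best per motif, and those nearest to listed genes. The members, motifs, and gene lists were chosen with earlier results of these data known. Summits on the X and Y chromosomes were left out by the rule. Alternatives tried were equal or unequal lists, score minimum, window, distance, motif definition, percentile ranks, a replicate block, covariates, and leaving out libraries.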

Additional observations from a re-analysis of the deposited data

How the results depend on the processing

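The low share of CTCF matches held under all alternatives run, but its size did not. From 2.2% it went to 3.8% at more than 20 kb from a start, 0.5% with no mismatch, 9.7% with up to 2 mismatches, 1% within 50 bp, and 4.75% in the 2000 strongest. Further alternatives chosen after seeing the data gave 3.9% within 250 bp and 4.8% anywhere in the region, and leaving out each library gave 2.1% to 2.3%. In each of these where other constitutive distal regions were counted, their share was higher.

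The 49 sites called for age became 27 with percentile ranks, 8 in the 9 libraries with an unexplained tag in the file name, 123 at an adjusted p under 0.05 (12.3% beside 7.89% of all regions), 8 with list length and 12 with Y-linked summits as a covariate, and 21 to 50 without 1 library. In the 9 libraries and with percentile ranks, the shares over all regions fell as well, to 0.656% and 1.89%. For age in WT the 5 sites became 11 with lists of unequal length, 3 with regions called in all 12 lists, 0 with percentile ranks, 0 in the 9 libraries, 31 at an adjusted p under 0.05, 0 with list length and 1 with Y-linked summits as a covariate, and 0 to 7 without 1 library. For age in Mlkl-/- the 2 sites became 9 with lists of unequal length, 0 with percentile ranks, 1 in the 9 libraries, 27 at an adjusted p under 0.05, 1 with Y-linked summits as a covariate, and 1 to 3 without 1 library. The cause of these shifts was not tested. All genotype counts and the interaction count were 0 under every alternative. The genotype difference in the rank of CTCF sites (-90.5 ranks) ranged from -139.2 to -16.8 without 1 library, was 13.9 ranks in the 9 libraries (p = 0.55), 14.2 with up to 2 mismatches (p = 0.51), and -1.0 at more than 20 kb from a start (p = 0.98), and passed an unadjusted exact permutation p of 0.05 without Young Mlkl-/- replicate 1 (-131.5 ranks, p = 0.02) or Young Mlkl-/- replicate 3 (-139.2 ranks, p = 0.03).

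The labels give all groups the same replicate numbers, but same-numbered libraries did not deviate together (correlations of deviations from -0.297 to 0.088 over 18 pairs), so the numbers were not taken as pairs. With the replicate number as a block, 36 sites passed for age over both genotypes (3.6% beside 2.13% of all regions, 33 of them among the 49), 1 in WT, 2 in Mlkl-/-, and 0 for every genotype contrast. In the block, the differences in CTCF rank kept p = 0.25 for age and p = 0.156 for genotype by exact permutation, and those in summit offset p = 0.938 and p = 0.5.

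The shortest list belonged to the library with the lowest median score. Total reads were not used here, and the part of depth in the scores was not tested. Leaving out sites within 10 kb of a RefSeq start or with repeats, also chosen after seeing the data, gave 42 and 48 sites for age.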

Other observations

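The sites were spread over all 19 autosomes. Chromosome 6 held 83 of them, 29.4% of its constitutive distal regions, of which 15 were the array near Ezh2, and chromosome 2 held 85 (25.1%). Chromosome 19 held 16 (17%), and chromosome 7 had 42 (19.4%). Per length, the density ran from 2.60 sites per 10 Mb on chromosome 19 to 5.54 on chromosome 6.

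The regions of the array show how much the meaning of distal rests on the annotation, since 67 of the 1000 sites were within 1 kb of a RefSeq transcript start and 13 within 1 kb of a curated one.

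The nearest transcript start of any type belonged to a protein-coding gene for 480 of the 1000 sites. The median distance was 22.7 kb to any start and 38.6 kb to a coding one, and 53 sites were more than 100 kb from every start.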
